A study of Mus musculus with 40 samples.

Results

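The set described here was 48 named genes along mouse chromosome 19, of which 46 were measured. They were chosen by their position on the chromosome and as broadly expressed genes, with earlier results of these data known. Prdx5 and Chuk had no probe set naming 1 gene and were left out. The 46 genes stood among 609 genes of chromosome 19 and 18193 genes in all, and each was followed as its difference on the log2 scale from the mean of the cortices, on every array and over 5 groups of samples. The data were 40 Affymetrix mouse arrays from a study of brain tumors (gliomas) that arise in mice with altered p53, the tumor suppressor gene. In all tumor models Cre recombinase was driven by hGFAP-cre, a human GFAP promoter active in neural progenitors and astroglia, so that the p53 alleles were changed in these cells and their descendants. The p53 null CKO gliomas (n = 11) had the genotype hGFAP-cre+;p53floxE2-10/floxE2-10, in which both alleles are deleted by Cre. The p53 R172H CKO gliomas (n = 11) were hGFAP-cre+;p53LSLR172H/floxE2-10, with 1 allele switched on as the R172H point mutant after removal of a stop cassette and the other deleted. Cell lines of that same genotype came from end-stage gliomas (n = 11) and from early biopsies (n = 2), and grew as spheres in neural stem cell medium with bFGF and EGF. The reference was normal cortex (n = 5), of which 3 were hGFAP-cre+;p53floxE2-10/+ and 2 were hGFAP-cre-;p53floxE5-6/floxE5-6, so the cortices also carried floxed alleles. Ages are not given in the labels, and the methods of the study pair each R172H tumor with a line, while the labels do not say which line came from which tumor or whether each array came from a separate mouse. Samples are called here by the array numbers of the labels, 30 to 34 for the cortices.

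Chromosome 19 is the smallest mouse autosome, and like all mouse autosomes it has its centromere at one end. The number of copies of a chromosome region in a cell is one of the influences on the RNA level of the genes in it, beside their own promoters and the cell type. The chromosome carries genes of several unrelated roles: enzymes of amino acid and mitochondrial metabolism (Got1, Aldh18a1, Cox8a, Prdx3), signalling and transcription factors (Gnaq, Rela, Nfkb2, Tcf7l2, Sufu), chromatin and chromosome proteins (Smarca2, Banf1, Smc3, Men1), and proteins of the cytoskeleton and of membrane traffic (Cfl1, Add3, Vti1a, Ehd1). These arrays measured RNA and not DNA copies.

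Got1 and Aldh18a1 are shown by sequence because they had the largest fall and the largest rise against cortex and follow each other in the order of the members, and Gnaq and Smarca2 because they were the pair of neighbours that fell in the middle of the chromosome. Each sequence is the 250 bases before the annotated start of the gene, 5′ to 3′ on the strand of the gene, from RefSeq on build GRCm38.p6. Capitals mark motif matches on either strand. The motifs were the E-box, with the letters CACGTG, the GC box, with the letters GGGCGG, the CCAAT box and the TATA box, with the letters TATAAA.
Got1: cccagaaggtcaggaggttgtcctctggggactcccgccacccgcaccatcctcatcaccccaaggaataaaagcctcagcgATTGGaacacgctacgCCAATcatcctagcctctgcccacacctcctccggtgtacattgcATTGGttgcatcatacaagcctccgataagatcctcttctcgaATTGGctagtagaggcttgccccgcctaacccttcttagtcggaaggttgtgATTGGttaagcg
Aldh18a1: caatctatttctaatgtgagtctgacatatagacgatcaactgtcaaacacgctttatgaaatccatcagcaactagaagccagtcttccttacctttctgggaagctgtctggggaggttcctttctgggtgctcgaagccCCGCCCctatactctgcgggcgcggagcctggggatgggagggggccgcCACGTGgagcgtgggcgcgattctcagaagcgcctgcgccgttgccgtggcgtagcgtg
Gnaq: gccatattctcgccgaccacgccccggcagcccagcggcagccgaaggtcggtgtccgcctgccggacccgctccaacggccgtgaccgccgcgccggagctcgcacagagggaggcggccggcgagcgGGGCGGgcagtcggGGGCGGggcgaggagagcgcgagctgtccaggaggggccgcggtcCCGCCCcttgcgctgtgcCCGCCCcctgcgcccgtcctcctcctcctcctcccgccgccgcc
Smarca2: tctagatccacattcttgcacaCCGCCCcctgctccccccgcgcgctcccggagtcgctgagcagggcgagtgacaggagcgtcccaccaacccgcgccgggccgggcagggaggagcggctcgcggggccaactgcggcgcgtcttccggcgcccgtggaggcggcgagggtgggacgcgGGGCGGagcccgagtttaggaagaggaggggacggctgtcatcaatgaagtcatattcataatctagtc
The window of Got1 is chr19:43524606-43524855 on the minus strand, has 54.4% G and C, and holds 5 CCAAT matches. That of Aldh18a1 is chr19:40588464-40588713 on the minus strand, has 57.2% G and C, and holds 1 E-box and 1 GC box. Gnaq has the window chr19:16132434-16132683 on the plus strand, with 79.2% G and C and 4 GC boxes. Smarca2 has chr19:26604910-26605159 on the plus strand, with 68.4% G and C and 2 GC boxes. The 4 windows thus shared no motif across all of them, and the GC box was in 3. Among 58 windows of 42 members, 63.8% held a GC box, 43.1% a CCAAT box, 6.90% a TATA box and 5.17% an E-box, against 32.7%, 33.8%, 12.4% and 6.02% of all 32851 windows of this length. Median G and C content was 60.2% in the members and 52.4% in all windows. The members were picked as broadly expressed genes and all windows were not, so this contrast does not set chromosome 19 apart. Such matches are descriptions of letters, and no binding was measured. Ppp1ca, Ehd1, Btrc and Trim8 were not in the table used.

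The array medians lay between 5.24 and 5.47 on the log2 scale, and arrays of 1 group correlated at 0.978 to 0.992 in cortex, 0.894 to 0.981 in p53 null CKO gliomas, 0.853 to 0.974 in p53 R172H CKO gliomas and 0.936 to 0.975 in end-stage lines. No level of p53 itself was used here, so the genotypes were not checked on the altered gene. The tissue labels were checked on cell type markers, scored as the median log2 difference of a list from the cortex mean. All 11 neuron markers were lower than in cortex in both glioma groups and both kinds of line. Their score ran from -7.74 to -0.60 in the null gliomas, from -7.44 to 0.08 in the R172H gliomas and from -8.02 to -5.00 in the end-stage lines. Gliomas 38, 45 and 58 had the highest neuron scores, at -0.61, -0.60 and 0.08, which places glioma 58 among the cortices (-0.26 to 0.09). Of 10 markers of microglia and macrophages, 7 rose in each glioma group, and all 10 fell in the lines, to below the array medians. Of 8 oligodendrocyte progenitor markers, 5 rose in each glioma group and in the end-stage lines. Gliomas 36, 41 and 50 had the lowest progenitor scores, at -1.27, 0.55 and -2.22. The group medians were 2.77 in the null and 3.03 in the R172H gliomas. Mature oligodendrocyte markers were lower for 4 of 7 in each glioma group and 6 of 7 in the end-stage lines, astrocyte markers for 2, 5 and 5 of 8, and endothelial markers for 2, 4 and 8 of 8. In bulk samples, fewer cells of a type and less RNA per cell cannot be told apart, and the part of these markers in the results on chromosome 19 was not tested.

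Against cortex, more of the 46 members fell than rose in every tumor group. In the p53 null CKO gliomas 12 members fell and 6 rose at an adjusted p under 0.05, where 22.2% of all genes fell and 20.5% rose. In the p53 R172H CKO gliomas 15 fell and 5 rose, against 24.3% and 21.5% of all genes. The end-stage lines had 14 that fell and 7 that rose, against 24.3% and 25.5%. The early biopsy lines had 9 that fell and 2 that rose, against 18.3% and 16.1%. As shares of the members, the falls were 26.1%, 32.6% and 30.4% in the groups of 11 arrays, each above the share of all genes, while the shares of members that rose were each below it. The 563 other genes of the chromosome had similar shares, with 26.5%, 33.9% and 30.4% lower and 12.4%, 9.77% and 13.9% higher. Among bright genes (mean log2 signal of at least 8), 18.8%, 28.1% and 28.1% of the members fell, against 20.4%, 20.1% and 20.4% outside the chromosome. The shares that rose were 15.6%, 12.5% and 18.8%, against 35.8%, 38.6% and 43.8%. In the null gliomas the share of members that fell was thus not above that of other bright genes. The median log2 difference of the members from cortex was -0.20, -0.21, -0.11 and -0.30 in null gliomas, R172H gliomas, end-stage lines and early biopsy lines. Over all genes it was -0.03, -0.03 and 0.02 in the first 3 of these. Over the 32 bright members alone (mean log2 signal of at least 8) it was -0.11, -0.17, 0.11 and -0.12, so its direction in the end-stage lines was turned, with 17 of 32 above 0. Under cyclic loess normalization the median was -0.52 in the R172H gliomas and -0.41 in the end-stage lines, and without line 66 it was 0.0025 in the early biopsy lines. All of these comparisons share the same 5 cortices, and the counts moved with the scale and the cortices. Under cyclic loess and with the arrays centred on bright genes outside the chromosome, 21 and 20 members were lower in the null gliomas and 23 and 24 in the R172H gliomas. Array weights gave 10 higher members in the null gliomas and 14 in the end-stage lines, and the Cre-positive cortices alone gave 3 and 4. With each cortex left out in turn, 7 to 10 members were lower in the null gliomas (7 without cortex 30). Without cortex 30, 3 members were higher in the R172H gliomas. Without gliomas 38, 45 and 58, the counts were 12 lower and 6 higher in the null gliomas and 16 lower and 6 higher in the R172H gliomas.

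**Figure D1:**
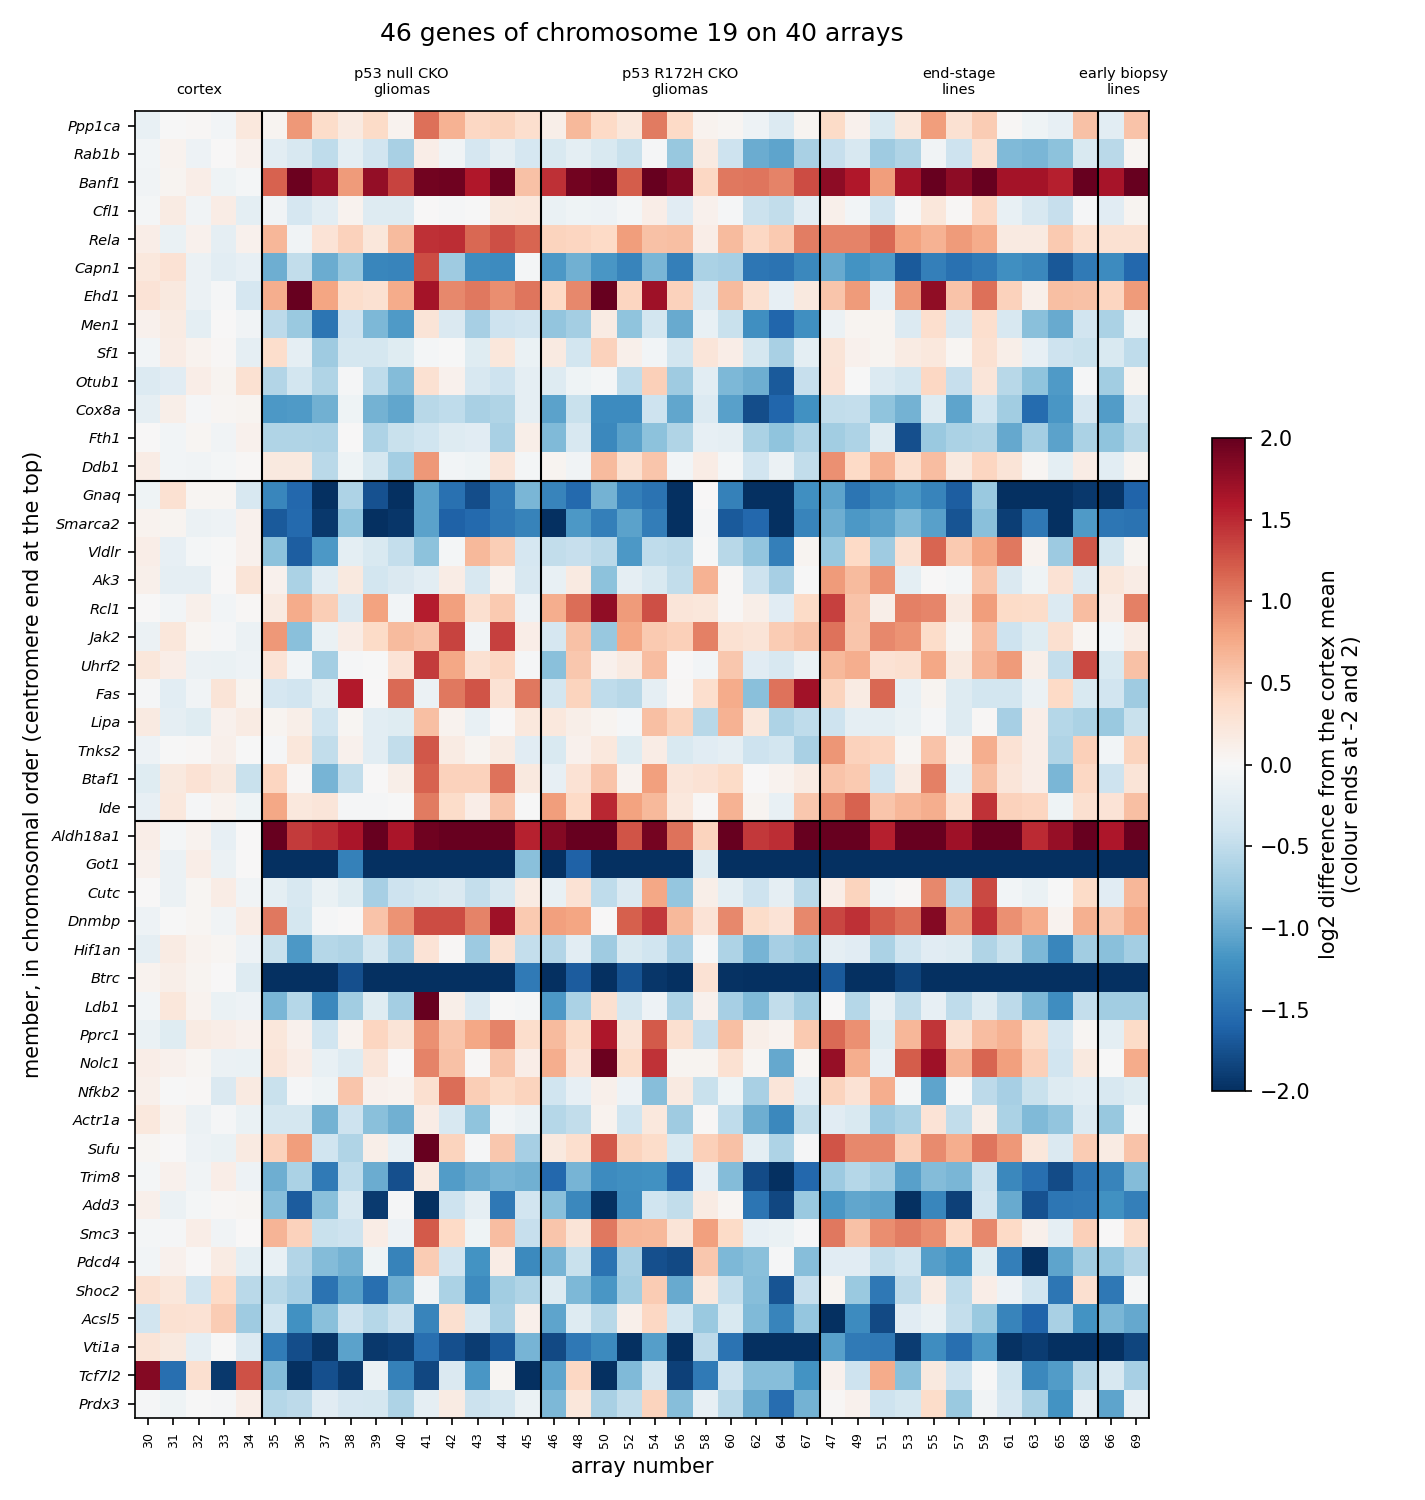
Difference of each of the 46 members from the cortex mean (rows, in the order of the chromosome from the centromere down) on each of the 40 arrays (columns, by group), as log2 values in colour with the scale ended at -2 and 2. Got1, Btrc and Vti1a are low and Aldh18a1 and Banf1 high on nearly all glioma and line arrays, while single arrays such as line 65 are low over most members.

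Over the 4 comparisons with cortex, 27 members passed in at least 1, 18 of them lower and 9 higher, and no member was higher in 1 and lower in another. The 7 that were lower in all 4 were Got1, Btrc, Vti1a, Smarca2, Gnaq, Trim8 and Capn1, and Cox8a and Add3 joined them in the 3 groups of 11 arrays. Aldh18a1 and Banf1 were higher in all 4, and Rela and Dnmbp in the 3 groups of 11 arrays. The other 19 members passed in none. Over all genes, 16.1% to 25.5% rose and 18.3% to 24.3% fell in a single one of these 4 comparisons, which all share the same 5 cortices. The same patterns were not counted over all genes, so these counts do not set the members apart.

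Got1, the cytosolic aspartate aminotransferase of the malate-aspartate shuttle, fell the most. The cortices measured 11.99, 11.78, 12.04, 11.79 and 11.91 on the log2 scale. The null gliomas ran from 7.75 through a median of 8.81 to 11.07 in glioma 45, the R172H gliomas from 7.18 through 9.01 to 11.65 in glioma 58, and the end-stage lines from 6.44 through 8.94 to 9.80. The early biopsy lines measured 8.08 and 9.10. No glioma or line reached the lowest cortex, and the pair of gliomas nearest to it, 58 and 45, were among the 3 with the highest neuron scores. On the log2 scale Got1 fell by 2.83 ± 0.55 (SE) in the null gliomas (7.10-fold, limma adjusted p = 8.46e-05). In the R172H gliomas Got1 fell by 2.91 ± 0.55 (adjusted p = 5.35e-05) and in the end-stage lines, where neuron scores were all at or under -5.00, it fell by 3.24 ± 0.55 (9.43-fold, adjusted p = 6.68e-06).

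Btrc, a substrate receptor of the SCF ubiquitin ligase, came next. Its cortex levels were 9.54, 9.60, 9.53, 9.48 and 9.22. Null gliomas lay at 6.03 to 8.06 with a median of 6.97, and end-stage lines at 5.67 to 7.80 with a median of 6.67. R172H gliomas lay at 5.96 to 9.77, and of these arrays only glioma 58 reached the cortices, lying above all of them. The log2 difference of Btrc from cortex was -2.50, -2.13 and -2.78, each ± 0.37 (SE), in null gliomas, R172H gliomas and end-stage lines (adjusted p = 2.05e-06, 1.85e-05 and 1.26e-07). Averaging all of its probe sets gave smaller falls, of -0.95, -0.92 and -0.89 on the log2 scale.

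Vti1a, a SNARE of traffic between endosomes and the Golgi, measured 8.74, 8.69, 8.32, 8.49 and 8.22 in the cortices. Its null gliomas ran from 6.53 to 7.56, its R172H gliomas from 5.83 to 7.97 and its end-stage lines from 6.35 to 7.40, so that none overlapped the cortices. The log2 difference was -1.62, -1.69 and -1.63, each ± 0.23 (adjusted p = 1.05e-06, 4.67e-07 and 3.29e-07). This fall rested on the brightest probe set: another of Vti1a, above the array medians, differed from cortex by 0.02, 0.04 and 0.43, a further one, also above them, by 0.71, 0.60 and 0.72, and with the mean of all its probe sets Vti1a did not pass in any comparison.

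Gnaq, the G protein subunit that couples receptors to phospholipase C, and Smarca2, an ATPase of the BAF chromatin remodelling complex, lie in the middle of the chromosome. Gnaq measured 11.16, 11.55, 11.29, 11.28 and 10.92 in the cortices, 8.86 to 10.63 in the null gliomas, 8.90 to 11.25 in the R172H gliomas and 8.86 to 10.49 in the end-stage lines. Smarca2 measured 10.28, 10.27, 10.09, 10.11 and 10.29 in the cortices, 7.90 to 9.41 in the null gliomas, up to 10.18 in the R172H gliomas and 8.08 to 9.37 in the end-stage lines. Each gene had 1 glioma within the cortex range, glioma 58 in both cases. Gnaq differed from cortex by -1.48, -1.42 and -1.57 on the log2 scale in the 3 groups (adjusted p = 4.36e-05, 6.81e-05 and 9.75e-06), and Smarca2 by -1.57, -1.46 and -1.30.

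Trim8, a ubiquitin ligase, differed from cortex by -0.92, -1.31 and -1.03 on the log2 scale in the same order of groups, and Cox8a, a subunit of cytochrome c oxidase, by -0.71, -1.04 and -0.74. Add3, an adducin of the membrane skeleton, differed by -0.93, -0.99 and -1.34. Capn1, a calcium-dependent protease, was a dim gene, at 5.62 to 6.13 in the cortices against array medians of 5.24 to 5.47, and its end-stage lines lay at 4.15 to 4.84, below the array medians. Null glioma 41 stood above all cortices in Capn1, at 7.15. Fth1, the heavy chain of ferritin, passed in the R172H gliomas (-0.67, adjusted p = 0.00146) and the end-stage lines (-0.79, adjusted p = 0.00017) and not in the null gliomas. Tcf7l2, a transcription factor of Wnt signalling, fell by 1.41 in the null gliomas (adjusted p = 0.0403), but its cortices themselves lay far apart, at 10.40, 7.04, 8.88, 6.62 and 9.83.

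Aldh18a1, the enzyme that starts proline synthesis from glutamate, rose the most. Its cortices measured 8.66, 8.49, 8.60, 8.36 and 8.55. The null gliomas ran from 9.93 through a median of 10.47 to 11.02, the R172H gliomas from 8.97 through 10.36 to 11.56 and the end-stage lines from 10.03 through 10.95 to 11.61, with 10.14 and 10.80 in the early biopsy lines. Every glioma and line was above every cortex, and the lowest was glioma 58. Aldh18a1 was higher than cortex by 1.87 ± 0.27 in the null gliomas (3.67-fold, adjusted p = 1.35e-06), by 1.74 ± 0.27 in the R172H gliomas (3.35-fold, adjusted p = 3.48e-06) and by 2.20 ± 0.27 in the end-stage lines (4.61-fold, adjusted p = 2.8e-08) on the log2 scale. All 4 of its other probe sets were higher too, by 1.17 to 2.06.

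Banf1, a small protein that binds DNA and helps to rebuild the nuclear envelope after mitosis, measured 9.63, 9.75, 9.83, 9.61 and 9.66 in the cortices. It ran from 10.29 to 11.65 in the null gliomas, from 10.11 to 12.25 in the R172H gliomas and from 10.53 to 12.35 in the end-stage lines, with no overlap. The rises were 1.53, 1.45 and 1.78 on the log2 scale, each ± 0.26 (adjusted p = 1.22e-05, 2.41e-05 and 4.98e-07). In the early biopsy lines Banf1 rose by 1.98 ± 0.40 (adjusted p = 0.000247) and Aldh18a1 by 1.94 ± 0.42 (adjusted p = 0.000514).

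The largest falls in the 2 early biopsy lines were those of the same 5 genes as above. Got1 fell by 3.31 ± 0.86 (SE) on the log2 scale (adjusted p = 0.00269, and 0.0697 without line 66, where the call was lost and the lone line left was assumed to vary like the other groups), with Btrc at -2.89, Vti1a at -1.996, Gnaq at -1.78 and Smarca2 at -1.46 (adjusted p = 0.000222, 6.84e-05, 0.00133 and 0.00297).

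The other rises were smaller. Rela, the p65 subunit of NF-κB, rose by 0.79, 0.55 and 0.68 on the log2 scale (adjusted p = 0.00117, 0.0211 and 0.00389), and Dnmbp, an exchange factor for Cdc42, rose by 0.73, 0.70 and 1.07. The calls of Rela and Dnmbp in the R172H gliomas were each lost under 5 of 17 alternative settings, that of Dnmbp in the null gliomas under 2 of 17 (adjusted p up to 0.0711) and that of Rela in the end-stage lines under 2 of 15 (adjusted p up to 0.146). Ehd1, an endosomal recycling protein, rose by 0.97 in the null gliomas (adjusted p = 0.00857), where all 11 gliomas were above every cortex and 1 of 17 settings lost the call (adjusted p = 0.0765), and Ppp1ca, a catalytic subunit of protein phosphatase 1, rose by 0.45 (adjusted p = 0.045). Ide, a protease that degrades insulin, rose by 0.51 in the R172H gliomas and 0.63 in the lines, and the first of these was lost under 9 of 17 settings. Smc3, a core subunit of cohesin, rose by 0.61 (adjusted p = 0.0239) and Nolc1, a nucleolar chaperone of ribosome assembly, by 0.74 (adjusted p = 0.0497) in the end-stage lines, and the call of Nolc1 was lost under 11 of 15 settings.

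**Figure D2:**
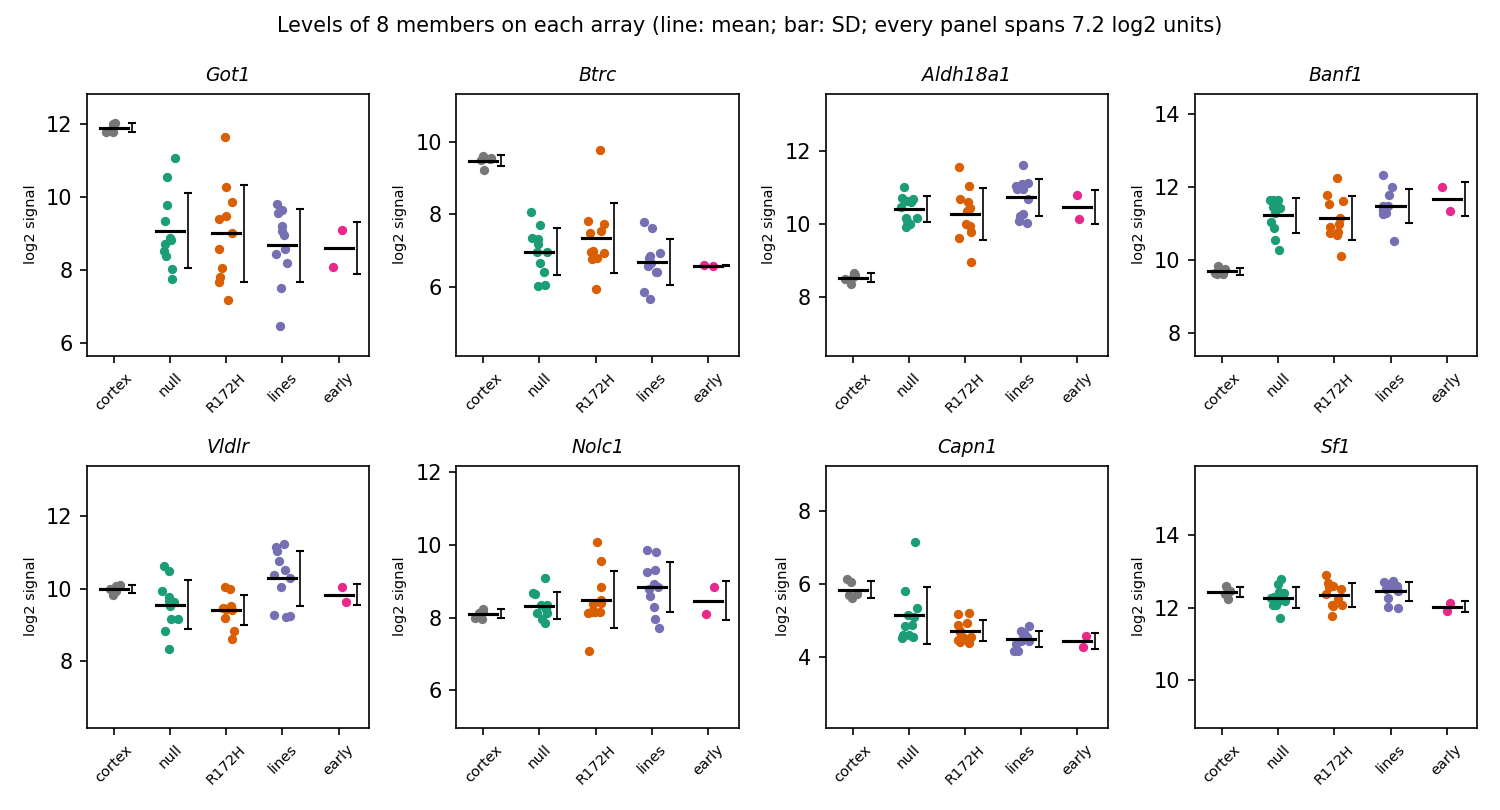
Log2 signal of 8 members, with 1 point for each array, drawn by group, and a line at the mean of the group. The points of Got1, Btrc, Aldh18a1 and Banf1 in the lines stand clear of the 5 cortices, while Sf1 overlaps them.

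By role, the members that passed did not move one way. Among enzymes and mitochondrial proteins, Got1, Cox8a, Prdx3, a mitochondrial peroxiredoxin, and Acsl5, an acyl-CoA synthetase, were lower in at least 1 comparison and Aldh18a1 was higher, and Ak3, the mitochondrial adenylate kinase, passed in none. Among signalling genes, Gnaq, Btrc, Hif1an, the asparagine hydroxylase that acts on HIF, Shoc2, a scaffold of the Ras pathway, and Tcf7l2 were lower, and Rela and Ppp1ca were higher. Jak2, Fas, Sufu and Nfkb2 passed in none, with differences from cortex of 0.05 to 0.40 for Jak2, a cytokine receptor kinase, and 0.23 to 0.70 for Sufu, the inhibitor of Gli factors. Among chromatin and chromosome genes, Smarca2 and Men1, the menin tumor suppressor, were lower, Banf1 and Smc3 were higher, and Btaf1, Uhrf2, Ldb1, Ddb1 and the splicing factor Sf1 passed in none. Of the genes of membranes and cytoskeleton, Vti1a, Add3, Capn1 and Rab1b, a GTPase of traffic to the Golgi, were lower, Ehd1 and Dnmbp were higher, and Cfl1 and Actr1a passed in none. Cfl1, the actin-severing cofilin, differed from cortex by -0.14 to -0.06, and Actr1a, a subunit of dynactin, by -0.47 to -0.40. Pdcd4, an inhibitor of translation, fell, with differences of -0.83 in the R172H gliomas and -0.82 in the end-stage lines. The others that passed in none were Cutc, Lipa, Otub1, Pprc1, Rcl1, Tnks2 and Vldlr, at -0.59 to 0.59 with the brightest probe set. Some of their other probe sets above the array medians fell further. In null gliomas, R172H gliomas and end-stage lines, one of Otub1 differed by -1.58, -1.79 and -1.76 and one of Tnks2 by -1.09, -0.75 and -0.47. One of Vldlr differed by -1.30, -1.27 and -0.79, and another by -0.59, -0.58 and 0.50. Single probe sets were not tested.

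The members had binding partners, paralogs or pathway neighbours on other chromosomes, of which 87 were measured, and their median lay near 0. Of the 87 partners, 26 rose and 22 fell in the null gliomas, 30 and 21 in the R172H gliomas and 32 and 23 in the end-stage lines. As shares, 25.3%, 24.1% and 26.4% fell and 29.9%, 34.5% and 36.8% rose, where 22.2%, 24.3% and 24.3% of all genes fell and 20.5%, 21.5% and 25.5% rose. The partners had medians of -0.01, -0.01 and 0.00 on the log2 scale. Among the 37 members with such partners, the member lay below the median of its own partners for 25, 26 and 23. In the end-stage lines Smc3 was higher than cortex by 0.61, while the other cohesin genes Smc1a, Rad21, Stag1 and Stag2 were higher by 0.94, 1.13, 1.06 and 1.33. Got1 fell by 3.24 there, and the shuttle enzymes Got2 and Mdh1 fell too, to -0.63 and -0.62. Mdh2 of the shuttle was also measured and its value is not given here. Btrc had the paralog Fbxw11 at -0.11 and the SCF subunits Skp1 and Cul1 at 0.04 and 0.31, of which none passed. Cox8a lay below each of 8 other cytochrome c oxidase genes, whose median difference was -0.21. Smarca2 fell while Smarcc1, Smarce1 and Smarcb1 of the same complex rose by 1.23, 1.38 and 0.96, and Smarcc2 fell by 1.36. Smarca4 and Smarcd1 were also measured and are not given here, so these genes do not stand for the whole complex.

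To ask whether the chromosome 19 genes differed between the forms of mutant p53, the R172H gliomas were compared with the null gliomas. No member passed at an adjusted p under 0.05 in limma, where 0.033% of all genes did. At an unadjusted p under 0.05 there were 3 of 46 members (Capn1, Fth1 and Nfkb2) and 2024 of 18193 genes in all, a larger share than that of the members. Differences ran from -0.48 ± 0.17 (SE) for Nfkb2, a subunit of NF-κB (adjusted p = 0.244), to 0.37 ± 0.30 for Btrc. In all, 31 of the 46 were lower in the R172H gliomas, with a median of -0.07, and the median SE was 0.20. Of the other genes of the chromosome 400 of 563 were lower there, and of all genes 9179 of 18193. Early biopsy lines against end-stage lines gave 0 members at an adjusted p under 0.05 in limma, and 0% of all genes. At an unadjusted p under 0.05 there were 0 members, and 515 of 18193 genes in all. There 37 of 46 members were lower in the early biopsy lines, with a median of -0.16 and a median SE of 0.35 for 2 against 11 arrays. So were 320 of 563 other genes of the chromosome and 10199 of 18193 genes in all.

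End-stage lines were also set against the R172H gliomas, in a fit without pairs, since the tumor of each line is not labelled. Vldlr, a receptor for reelin and lipoproteins, and Tnks2, a tankyrase, rose and no member fell, where 7.24% of all genes rose and 6.43% fell. Vldlr measured 8.62 to 10.03 with a median of 9.44 in the gliomas and 9.23 to 11.22 with a median of 10.38 in the lines, and the groups overlapped. It was higher by 0.88 ± 0.25 on the log2 scale (1.84-fold, adjusted p = 0.0136). Tnks2 measured 10.31 to 11.17 with a median of 10.71 in the gliomas and 10.36 to 11.85 with a median of 11.39 in the lines, and was higher by 0.52 ± 0.16 (1.43-fold, adjusted p = 0.0206, and up to 0.0845 under the 2 of 11 settings that lost the call). Under cyclic loess and with the arrays centred on bright genes outside the chromosome, 1 member was higher and 1 lower, and array weights gave 8 higher. Without gliomas 38, 45 and 58 the count was 4, and without gliomas 36, 41 and 50, those lowest in progenitor genes, it was 6.

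Single gliomas and lines differed among themselves more than the groups did. On each array the median over the 46 members was taken of the difference from the cortex mean, which lay between -0.00 and 0.06 in the 5 cortices. In the null gliomas it was lowest in gliomas 37, 40 and 36, at -0.55, -0.42 and -0.36, and highest in glioma 41, at 0.29. In the R172H gliomas it was lowest in 62, 64 and 67, at -0.65, -0.63 and -0.48, and highest in 54, at 0.18. The end-stage lines ran from -0.62 in line 65, -0.32 in line 61 and -0.28 in line 63 up to 0.12, 0.25 and 0.31 in lines 47, 55 and 59, and the early biopsy lines had -0.37 in line 66 and 0.00 in line 69. Of the 35 gliomas and lines, 25 had a median below 0, and 34 did under cyclic loess normalization or with the arrays centred on bright genes outside the chromosome. The count stayed at 25 with the arrays centred on all genes outside the chromosome, and with the mean of all probe sets. The group means were -0.17 ± 0.25 (SD) in null gliomas, -0.26 ± 0.27 in R172H gliomas and -0.12 ± 0.28 in end-stage lines, so the spread within a group exceeded the differences between these 3 groups.

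Bright genes lay above cortex in all tumor groups. The 6357 bright genes outside chromosome 19 had array medians of 0.21 ± 0.11 (SD), 0.25 ± 0.08 and 0.36 ± 0.04 in null gliomas, R172H gliomas and end-stage lines. Over all genes outside the chromosome these were -0.04 ± 0.03, -0.04 ± 0.03 and 0.01 ± 0.04. Brightness was taken over all 40 arrays, of which 35 were gliomas or lines, so genes raised in tumors passed this filter more easily. The member median was below that of the bright genes on 21 of 22 gliomas, with glioma 41 the exception, and on 13 of 13 lines. Of the members, 32 were bright and 14 dimmer. The median of the 32 bright members alone was below that of the bright genes elsewhere on 20 of 22 gliomas and 12 of 13 lines, with gliomas 41 and 54 and line 59 the exceptions. The 160 other bright genes of chromosome 19 were below the bright genes elsewhere on 19 of 22 gliomas and 11 of 13 lines.

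**Figure D3:**
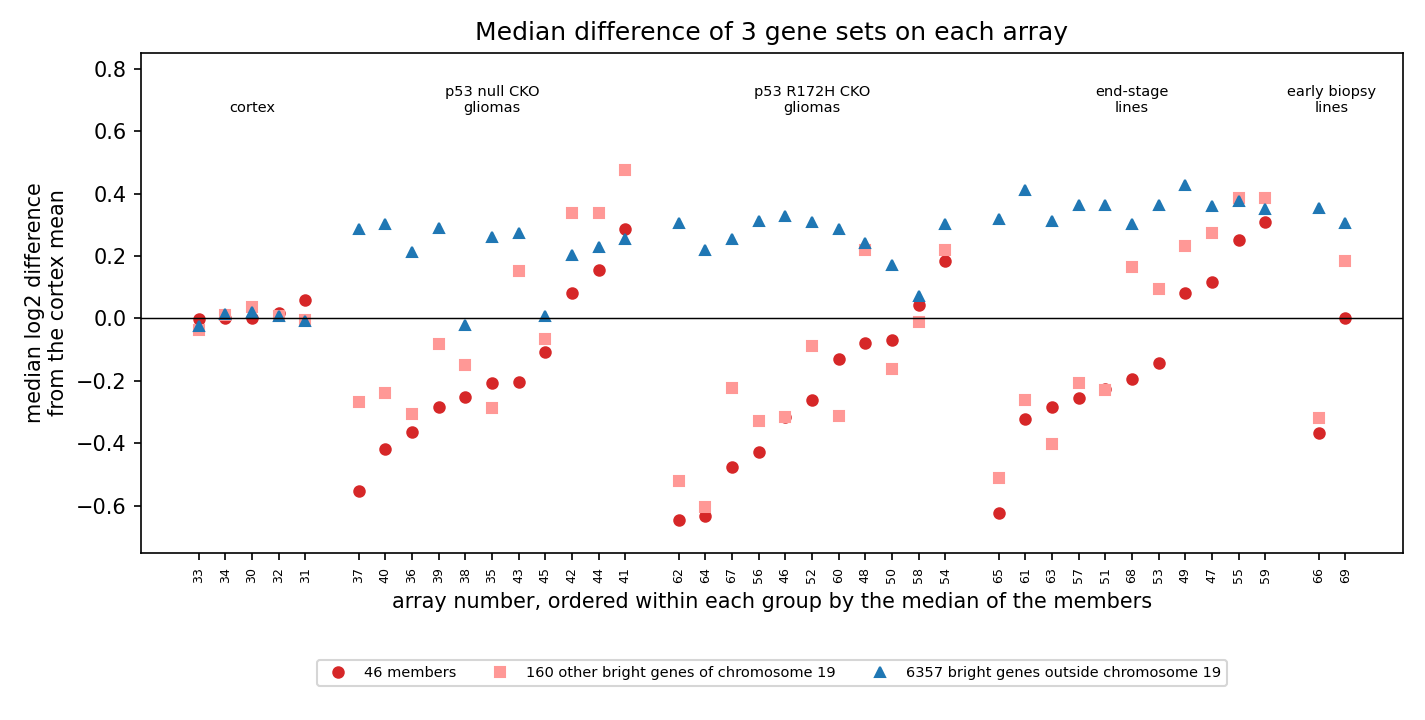
Median log2 difference from the cortex mean on each array for the 46 members, for 160 other bright genes of chromosome 19 and for 6357 bright genes of other chromosomes. The members lie below the bright genes of other chromosomes on all arrays of gliomas and lines but glioma 41 (and, for the 32 bright members alone, glioma 54 and line 59), and vary between arrays together with the other genes of the chromosome.

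The arrays with low medians were low over most members. On line 65, 33 of 46 members (71.7%) were below every cortex, against 32.1% of the bright genes outside the chromosome. The line held the lowest value among the 11 end-stage lines for 23 members, where 13.9% of those bright genes were lowest there. Lines 47, 55 and 59 held the highest value for 12, 12 and 10 members, against 8.67%, 9.22% and 4.67% of those bright genes. Glioma 64 held the lowest value of its group for 23 members (14.3% of bright genes elsewhere), and glioma 41 the highest for 20 (13.2%). Glioma 58, with neuron markers at the level of cortex, was highest for 15 (18.1%). Over the null gliomas, a mean of 49.4% of members and 33.4% of bright genes elsewhere were below every cortex on an array, and over the end-stage lines 45.5% and 30.1%.

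The other chromosomes gave the scale for these shifts. Of 20 chromosomes, ranked on each array by the median of their bright genes without the members, chromosome 19 was the lowest on 11 of 22 gliomas, 4 null and 7 R172H, and on 5 of 13 lines. It was among the lowest 3 on 15 gliomas and 7 lines. Its mean over arrays was -0.01 ± 0.29 (SD) in null gliomas, -0.19 ± 0.27 in R172H gliomas, -0.01 ± 0.32 in end-stage lines and 0.00 ± 0.03 in cortex. That was the lowest chromosome mean in the R172H gliomas and end-stage lines, and in the null gliomas and early biopsy lines only chromosome 18 was lower, at -0.08 and -0.07. The SD of chromosome 19 across arrays was the largest of the 20 in all 4 tumor groups, of which the early biopsy lines are 2 arrays. In the R172H gliomas its lead was small, at 0.267 against 0.265 on chromosome 18. Chromosomes 19 and 18 also had the fewest bright genes, 160 and 169, against 214 to 553 on the others. Medians over fewer genes vary more, and the part of gene number in these ranks was not tested.

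**Figure D4:**
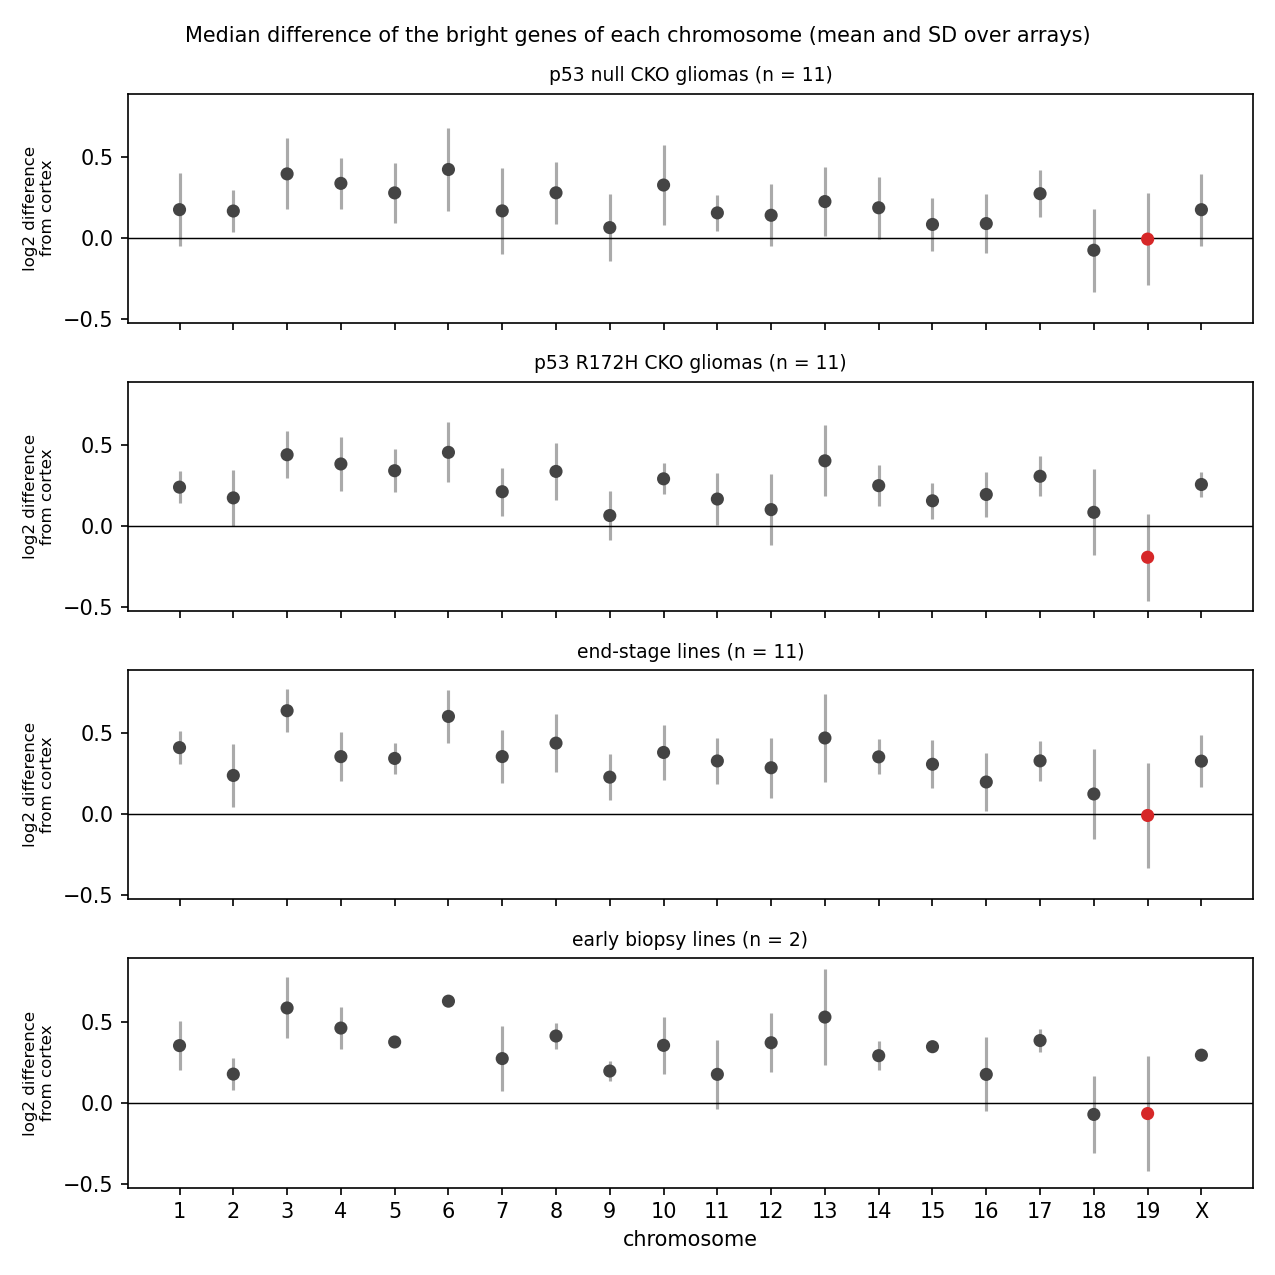
Mean over arrays of the median log2 difference from cortex of the bright genes of each of 20 chromosomes, with SD bars, in 4 groups of gliomas and lines; members are left out. Chromosome 19, in red, is lowest or next to lowest in each group and has the longest bar, by little over chromosome 18 in the R172H gliomas.

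Along the chromosome, the members near the telomere were lower than the rest with the brightest probe sets, by a gap that depended on probe sets and normalization. The 46 members were split by order into 13 at the centromere end (Ppp1ca to Ddb1), 12 in the middle (Gnaq to Ide) and 21 at the telomere end (Aldh18a1 to Prdx3). In the end-stage lines the array medians of the 3 stretches averaged -0.02 ± 0.26 (SD), 0.20 ± 0.34 and -0.37 ± 0.36 on the log2 scale in this order. The null gliomas gave -0.14 ± 0.26, 0.03 ± 0.29 and -0.35 ± 0.30, and the R172H gliomas -0.17 ± 0.27, -0.05 ± 0.23 and -0.45 ± 0.35. The telomere end was the lowest stretch on 18 of 22 gliomas and 13 of 13 lines, and on 3 of 5 cortices. Other bright genes of the chromosome had their lowest stretch at the telomere end on 19 of 22 gliomas and 11 of 13 lines. With the mean of all probe sets in place of the brightest, the telomere end stood at -0.18, -0.30 and -0.17 in null gliomas, R172H gliomas and end-stage lines. The centromere end then stood at -0.15, -0.21 and -0.05. Under cyclic loess the telomere end stood at -0.46, -0.60 and -0.66 and the centromere end at -0.41, -0.49 and -0.40. In the null gliomas both ends thus lay close together under these settings. The middle stretch turned to -0.16 in the end-stage lines and -0.18 in the null gliomas when arrays were centred on bright genes outside the chromosome, and to -0.06 and -0.13 under cyclic loess. In the early biopsy lines the 3 stretches averaged -0.13, -0.08 and -0.50, but with the mean of all probe sets the middle, at -0.21, was below the telomere end, at -0.14.

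**Figure D5:**
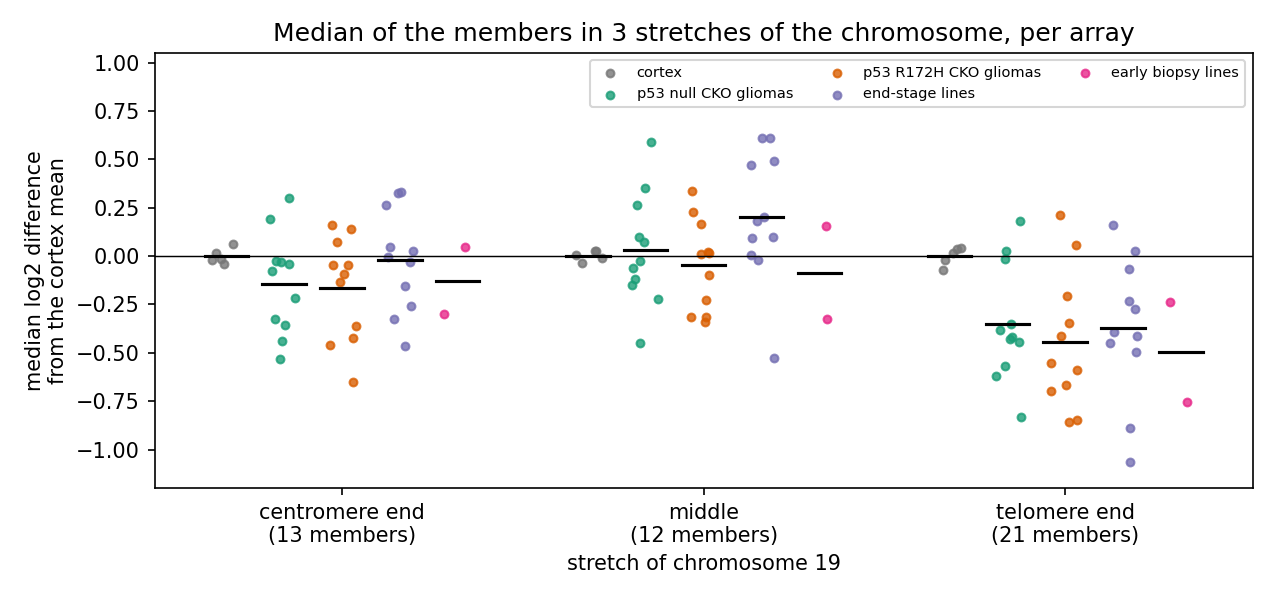
Median log2 difference from cortex on each array (dots) of the members in 3 stretches of chromosome 19, with group means as lines. In every group of gliomas and lines the telomere end has the lowest mean with the brightest probe sets, as drawn, though not in the early biopsy lines with the mean of all probe sets (-0.14 against -0.21 in the middle), and the dots of 1 group spread over about 1 log2 unit.

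At the ends of the order stood Ppp1ca and Prdx3. Ppp1ca measured 11.24, 11.39, 11.42, 11.34 and 11.61 in the cortices and 11.10 to 12.24 with a median of 11.62 in the end-stage lines. Prdx3 measured 10.29, 10.23, 10.31, 10.30 and 10.45 in the cortices and 9.12 to 10.69 with a median of 9.99 in the end-stage lines. The lines overlapped the cortices in both genes, and line 65 was the lowest in Prdx3.

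Among the 11 end-stage lines, the members varied unequally. Their median SD was 0.456 on the log2 scale, against 0.373 for the bright genes outside the chromosome, and in the cortices the same medians were 0.139 and 0.159. In the gliomas the medians were closer, at 0.465 and 0.444 in the null and 0.491 and 0.472 in the R172H gliomas. The largest SDs in the lines were those of Got1 (1.01), Vldlr (0.76) and Nolc1 (0.69), and the smallest those of Capn1 (0.22), Sf1 (0.25) and Cfl1 (0.26). Capn1 lay below the array medians in these lines, so its SD is not a like measure to those of the bright genes Sf1 and Cfl1. Nolc1 ran from 7.72 in line 65 through a median of 8.84 to 9.85 in line 47, against 8.24, 8.19, 8.14, 7.98 and 7.97 in the cortices. Sf1 ran from 11.99 to 12.74 with a median of 12.51, and its cortices measured 12.37, 12.58, 12.49, 12.46 and 12.24. Cfl1 ran from 12.13 to 13.003 with a median of 12.56, and overlapped its cortices at 12.55, 12.75, 12.52, 12.74 and 12.40.

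The levels of the members varied together across the lines. Over the 1035 pairs of members, the median Pearson correlation across the 11 end-stage lines was 0.486, and 88.4% of pairs were above 0. Between members and the other bright genes of chromosome 19 it was 0.454, and between members and bright genes elsewhere 0.036. For pairs of bright genes within a chromosome, the median was 0.494 on chromosome 19, 0.480 on chromosome 18 and 0.326 on chromosome 13, so chromosome 19 was not alone in this. The members had 0.349 in the null gliomas and 0.333 in the R172H gliomas, against -0.05 and -0.01 with bright genes elsewhere. These values describe 11 arrays each, the pairs share those arrays, and no test was made on them.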

How the data were processed

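RNA of 40 samples was hybridized to Affymetrix mouse genome arrays, 1 array a sample. The deposited values are log2 signals: the authors corrected the background, normalized by quantiles and summarized probes by the RMA method over all arrays. That the base is log2 was inferred from the range of the values. Quantile normalization gives the probe values of all arrays 1 distribution before they are summarized, so a shift of most genes in 1 direction would be removed or reduced. The medians of the summarized values still ran from 5.24 to 5.47.

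Control probe sets (64 of 45101) and probe sets naming several genes (932) or not in the annotation (9160) were left out, and each gene took its brightest remaining probe set by mean over the arrays. Chromosome and gene order came from the RefSeq table of GRCm38.p6. Of the members, 13 had 1 probe set and 33 had several. A linear model with 5 groups was fitted to all 18193 genes with limma 3.58.1 (functions lmFit, contrasts.fit, eBayes; R 4.3.3). The threshold was an adjusted p below 0.05, by Benjamini-Hochberg over all genes. It was first tested on simulated data with known changes. Medians per array, chromosome and stretch are descriptions made in Python 3.11.15. Bright genes had a mean log2 signal of at least 8 over all 40 arrays.

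The members, partner genes, marker lists and stretches were chosen with earlier results of these data known. Full statistics were given to the 5 members with the largest rise and fall among those that passed in a comparison, and to members with the 3 largest and 3 smallest spreads in the end-stage lines. The labels give no batch and no pairing, so p-values rest on the spread among these arrays alone, which may be technical. Precision is limited by how few arrays there are, with 5 cortices and 2 early biopsy lines. Alternatives changed the probe sets, normalization, centring, array weights, moderation, filter, samples in the fit and cortices used.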

Additional observations from a re-analysis of the deposited data

How the results depend on the processing

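Centring on bright genes outside chromosome 19 was chosen after seeing the data. It and cyclic loess moved the most values. Lower members became 21 (loess) and 20 (bright centring) in the null gliomas against 12, 23 and 24 in the R172H gliomas against 15, 23 (bright centring) in the end-stage lines against 14, and 16 and 15 in the early biopsy lines against 9. Higher members became 3 and 2 in the R172H gliomas against 5, and 3 and 3 in the end-stage lines against 7. For end-stage lines against R172H gliomas both gave 1 higher and 1 lower, against 2 and 0. The member median against cortex became -0.52 (loess) in the R172H gliomas, -0.41 and -0.47 in the end-stage lines and -0.63 (bright centring) in the early biopsy lines. In these comparisons with cortex the direction was kept and the size depends on the scale. For end-stage lines against R172H gliomas the median was 0.09 and ran from -0.01 to 0.19 over all settings, so its direction was not kept. Array weights gave 10, 8, 14 and 8 higher members in null gliomas, R172H gliomas, end-stage lines and end-stage lines against R172H gliomas, and 15 lower in the early biopsy lines. With the Cre-positive cortices alone, 3, 2 and 4 members were higher in the first 3 of these. Fitting the compared groups alone gave 18 lower and 5 higher in the early biopsy lines. The mean of all probe sets gave 4 higher members for end-stage lines against R172H gliomas, as did leaving out gliomas 38, 45 and 58, and leaving out gliomas 36, 41 and 50 gave 6. The mean of all probe sets also turned Vti1a in the early biopsy lines to 0.11 (adjusted p = 0.725).

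Leaving out each cortex in turn gave 7 to 10 lower and 5 to 6 higher members in the null gliomas (7 without cortex 30), and 13 to 14 lower and 2 to 4 higher in the R172H gliomas (3 without cortex 30 and 2 without cortex 33). In the early biopsy lines, leaving out a cortex or a line (the 1 line left is then assumed to vary like the other groups) gave 5 to 9 lower members and medians from -0.37 to 0.0025, with 5 lower without either line and a median of 0.0025 without line 66. Of the other values, 165 counts stayed within 1.5 times the reported count, and 94 medians moved by less than 1 SD between the arrays of the group. Of 39 pairs of a named member and a comparison, 26 kept call and direction under every alternative run, and the exceptions were Vti1a in 4 comparisons, Dnmbp, Rela, Ide, Nolc1, Ehd1, Tnks2 and, in the early biopsy lines, Got1. The causes were not tested. No paired analysis was possible because the labels do not say which line came from which tumor, though the methods of the study describe such pairs. Dim members such as Capn1 lie near the array medians, where signal over background is least, and their size of change is least certain.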
